A study of Mus musculus with 6 samples.

Results

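The p53 pathway was examined in mouse AML1-ETO9a leukaemia cells labelled AES wildtype or AES knockout. A list of 32 genes was used that held control genes of p53 and known transcriptional targets of p53. Of these, 28 were measured under a single gene symbol, among 19938 genes in all. Trp53 itself, Bax and Gdf15 were not analysed here. The only probe set annotated to Cdkn1a also carries the symbol of a second gene, so that Cdkn1a, which encodes the cell cycle inhibitor p21, was not analysed either.

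Both groups were C57BL/6 fetal liver cells of embryonic day 14.5 that had been transduced with AML1-ETO9a, a shortened AML1-ETO fusion oncoprotein, and transplanted into recipient mice. The cells carried wildtype or floxed AES alleles, and recipients received tamoxifen 4 weeks after transplantation to delete AES, a short co-repressor of the Groucho/TLE family. Leukaemia cells were sorted from the spleen by their GFP, and total RNA was hybridised to 6 arrays, 3 of AES wildtype and 3 of AES knockout cells. The labels do not name the Cre driver, the status of the p53 gene, or whether samples came from separate mice, so the p-values measure only the spread between these samples. Wildtype cells were taken after death from leukaemia and knockout cells when the experiment ended, so genotype and time of collection cannot be told apart.

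The transcription factor p53 is held at a low level by the ubiquitin ligase MDM2 and its partner MDM4, and is released from them after DNA damage, oncogene signals or nucleolar stress. The ARF protein of the Cdkn2a locus binds MDM2 and links oncogenes to p53. Active p53 raises genes for cell cycle arrest, cell death, DNA repair and metabolism, and also Mdm2 and Ppm1d, whose products switch p53 off again. In haematopoietic cells the pathway limits the growth of cells with damaged DNA. Its activity is set largely at the protein level, which arrays do not measure.

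Promoter sequences show which members carry a p53 motif next to a transcription start. Windows from 250 bases before to 50 bases after the start (RefSeq, GRCm38.p6) were given for 24 of the 32 genes. They were searched for the p53 full site, which is the p53 half-site consensus repeated without a spacer. Both 4-base cores had to be intact and up to 3 mismatches were allowed in the other 12 positions. The pattern reads alike on both strands, so each match counts for both. A match was present for 5 of the 24 members (20.8%) and for 182 of 27025 genes with a window (0.673%). With at most 2 mismatches it was present for 1 member, Cdkn1a (4.17%), and for 51 genes (0.189%). The list was made of known p53 targets, so this share describes how the list was chosen. The matches are printed 5′ to 3′ with the 20 bases of the match in capitals and flanking bases in lower case. The flanks of Aen are short because another start of the gene lies upstream.
Cdkn1a, chr17:29090888-29090978, plus strand, 1 mismatch: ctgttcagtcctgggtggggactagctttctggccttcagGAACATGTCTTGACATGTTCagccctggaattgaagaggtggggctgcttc
Trp53, chr11:69580244-69580343, plus strand, 3 mismatches: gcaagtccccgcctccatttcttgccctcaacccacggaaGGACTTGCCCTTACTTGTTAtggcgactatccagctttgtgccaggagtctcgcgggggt
Bbc3, chr7:16309446-16309545, plus strand, 3 mismatches: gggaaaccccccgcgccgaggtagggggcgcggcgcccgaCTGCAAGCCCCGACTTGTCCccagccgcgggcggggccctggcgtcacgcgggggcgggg
Tigar, chr6:127109706-127109802, minus strand, 3 mismatches: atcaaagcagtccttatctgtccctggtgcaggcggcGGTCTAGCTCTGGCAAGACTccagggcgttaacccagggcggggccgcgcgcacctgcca
Aen, chr7:78895932-78895961, plus strand, 3 mismatches: aagccGGGCTTGTCCGGGCAAGGAGcttcc
The match began 51 bases before the upstream start of Cdkn1a, 75 before that of Trp53, 97 before the most upstream start of Bbc3 and 213 before that of Tigar. Aen has 2 annotated starts, and its match began 10 bases after the upstream one and 121 bases before the downstream one. These are descriptions of sequence and not evidence of binding. Mdm2 and Ei24, the 2 members with the smallest p between the groups, held no match in their windows. The 100 bases before their starts are shown because the expression results turn on these genes, and both are 79.0% G and C.
Mdm2, chr10:117710759-117710858, minus strand: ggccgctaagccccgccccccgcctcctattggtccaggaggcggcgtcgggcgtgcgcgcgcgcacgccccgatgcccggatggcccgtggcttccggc
Ei24, chr9:36797335-36797434, minus strand: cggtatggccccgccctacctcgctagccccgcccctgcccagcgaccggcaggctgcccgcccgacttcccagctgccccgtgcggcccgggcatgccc
The p53 sites known for Mdm2 lie in its first intron, outside this window.

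The arrays were checked first. The deposited values were used as log2 values, and the median over genes ran from 6.70 to 6.81 on the 6 arrays. Aes, listed as Tle5, had values of 11.13, 11.10 and 11.11 in wildtype and 8.80, 9.33 and 8.86 in knockout cells, so that the targeted RNA was lower on each knockout array. Its signal still lay above the array median on all 6 arrays. Of 12 myeloid blast genes, 11 lay above the array median on at least 3 arrays, against 2 of 8 measured T cell and 3 of 8 measured B cell genes. The same held for 9 of 9 neutrophil, 8 of 9 macrophage and 5 of 5 measured erythroid genes. This count thus does not single out myeloid blasts. The mean log2 value of the myeloid genes lay between 7.24 and 9.34 on the single arrays, against 5.87 to 6.53 for the T cell and 5.88 to 7.23 for the B cell genes. The myeloid mean was lowest on knockout replicate 1 (7.24) and wildtype replicate 3 (7.46), where erythroid genes averaged 10.24 and 9.16. The erythroid mean was also the higher one on wildtype replicate 1 (10.59 against 9.34) and wildtype replicate 2 (9.35 against 8.08). So it was on knockout replicate 2 (11.45 against 8.70), and only knockout replicate 3 had it lower (8.83 against 9.15). On knockout replicate 1 and wildtype replicate 3, Mpo, Elane, Ctsg and Cd34 lay below the array median, and Kit, Myb and Spi1 above it. The myeloid label is thus less clear for these arrays, and erythroid means above the myeloid ones are not particular to them. Several marker lists set single arrays apart. The mean of 9 neutrophil genes was 5.35 on wildtype replicate 3 and 5.28 on knockout replicate 1, and 7.57 to 9.63 on the other 4 arrays. Measured Y-linked genes, 3 in number, averaged 4.46 and 5.16 on knockout replicates 1 and 3 and 9.23 to 9.49 on the other 4 arrays. Those 4 were all wildtype arrays and knockout replicate 2. Y-linked signal was thus split unevenly between the groups and cannot be fully told apart from genotype. Macrophage genes (9 measured) averaged 8.37 on knockout replicate 3 and 6.45 to 7.89 on the others, and erythroid genes (5 measured) ran from 8.83 to 11.45. Genes of stroma and endothelium (6 measured) lay between 6.25 and 6.62.

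No member passed the test for a difference by AES genotype. With limma and Benjamini-Hochberg adjustment over all 19938 genes, 0 of 28 members had an adjusted p under 0.05, as had 0.0% of all genes. The targeted gene Aes did not pass either. Its log2 difference was -2.12, with an unadjusted limma p of 1.17e-05 and an adjusted p of 0.234. The adjusted test thus missed even this change, and a lack of calls does not show that members were unchanged. At an unadjusted p under 0.05 there were 3 members (10.7%), Ei24, Mdm2 and Rrm2b, against 505 of all genes (2.53%). All 3 had higher means in knockout cells, where the share over all genes in that direction was 1.41%. A test without variance moderation gave the same 3 members at an unadjusted p, among 661 genes in all, and 0 members after adjustment. The values of the groups did not overlap for 4 members, all higher in knockout cells (14.3%), where the share over all genes was 3.65% in that direction. For members lower in knockout cells the count was 0, against 3.51% of all genes. Higher means in knockout cells were found for 20 of 28 members, against 50.9% of all genes, and the median difference was 0.11 on the log2 scale, against 0.00287 over all genes. The median was 0.07 without knockout replicate 1 and 0.17 without knockout replicate 2. With wildtype replicate 2 or knockout replicate 2 left out, 8 members had groups apart and higher in knockout cells, where fewer arrays make such separation more frequent (7.37% and 8.88% of all genes). In the other direction the count was 3 without wildtype replicate 3 (Bbc3, Plk2 and Pmaip1, against 7.64% of all genes), 2 without knockout replicate 3 (Perp and Pmaip1, against 7.34%) and 1 without wildtype replicate 1 (Perp, against 9.15%).

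**Figure D1:**
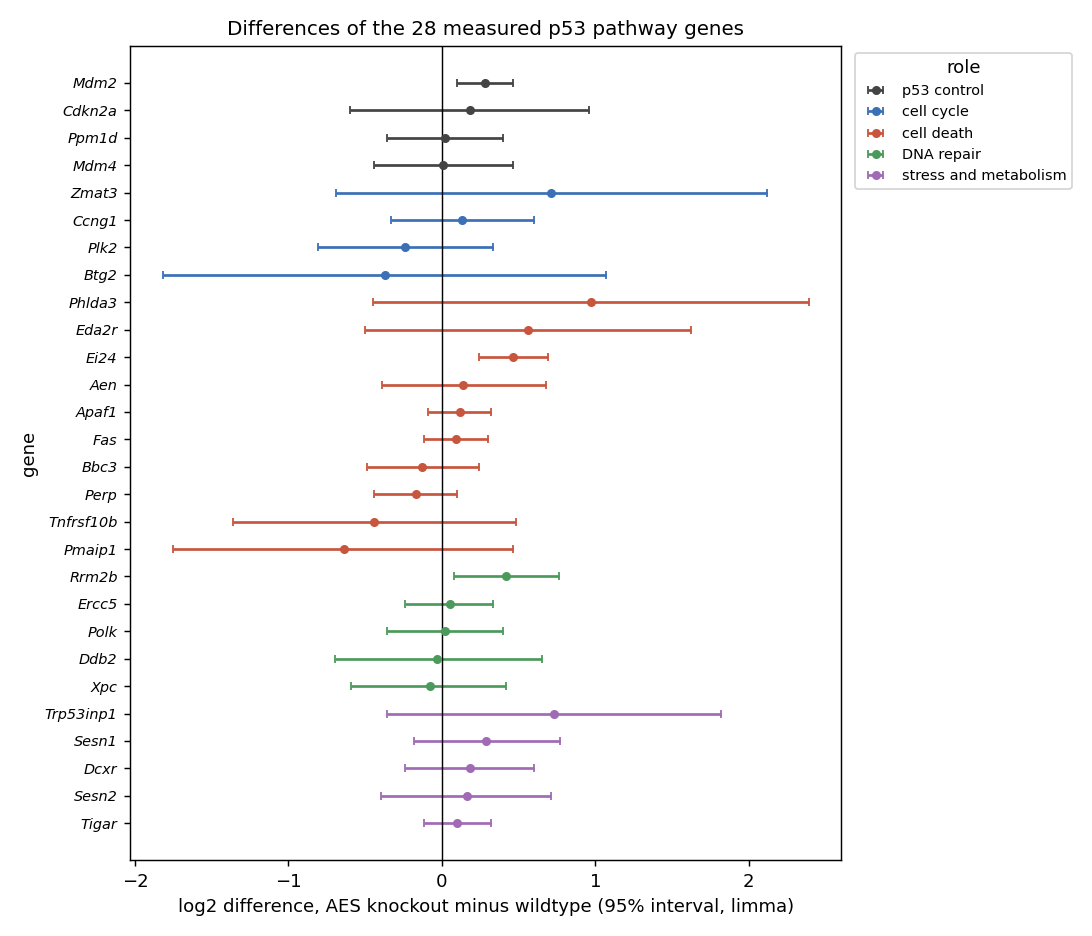
Log2 difference of AES knockout minus wildtype cells (x axis) for the 28 measured p53 pathway genes (y axis), grouped by role, with 95% intervals from limma on 3 arrays per group. The intervals of Mdm2, Ei24 and Rrm2b lie above 0, those of the other 25 genes include 0, and no gene passed after adjustment over all genes.

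Among the control genes of p53, the groups did not overlap for Mdm2 and overlapped for Mdm4, Ppm1d and Cdkn2a. Mdm2, the main ubiquitin ligase of p53 and itself a p53 target, had log2 values of 9.82, 9.89 and 9.85 in wildtype and 10.19, 10.08 and 10.15 in knockout cells. All knockout values lay above all wildtype values. The means were 9.86 ± 0.04 (SD, n = 3) and 10.14 ± 0.06 (SD, n = 3), a 1.22-fold higher level in knockout cells (log2 difference 0.28, 95% interval 0.10 to 0.46). Its unadjusted limma p was 0.00845 and its adjusted p 1.00. The exact permutation test, two-sided, gave p = 0.1, the smallest possible with 3 arrays against 3. The difference ran from 0.26 to 0.31 with single arrays left out.

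Mdm4, the partner of MDM2 that masks the activation domain of p53, had values of 10.41, 10.63 and 10.56 in wildtype and 10.65, 10.17 and 10.82 in knockout cells. The knockout arrays lay on both sides of the wildtype range, with replicate 2 lowest and replicate 3 highest of all 6. The log2 difference was 0.01, with an interval of -0.44 to 0.46. Ppm1d, the phosphatase WIP1 that removes activating phosphates from p53 and its kinases, had values of 10.25, 10.37 and 10.44 in wildtype and 10.48, 10.59 and 10.07 in knockout cells. Its groups overlapped and its difference was 0.02 (interval -0.36 to 0.40). Whether the difference of Mdm2 exceeds those of Mdm4, Ppm1d and Cdkn2a was not tested.

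Cdkn2a encodes the CDK inhibitor INK4A and the MDM2 inhibitor ARF in different reading frames, and its 1 probe set does not separate them. Its values were 6.95, 6.63 and 6.56 in wildtype and 7.59, 6.61 and 6.46 in knockout cells. Knockout replicate 1 was highest, and the other knockout arrays lay close to wildtype. The difference of 0.18 turned to -0.17 without knockout replicate 1. On 4 of the 6 arrays the gene lay below the array median, and no detection calls were used.

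The cell cycle members did not move together. Ccng1, cyclin G1, which recruits phosphatase 2A to MDM2, had values of 11.51, 11.73 and 11.38 in wildtype and 12.02, 11.38 and 11.61 in knockout cells. Only knockout replicate 1 lay above the wildtype range, and the difference of 0.13 became -0.04 without it. Zmat3, an RNA-binding zinc finger protein, had values of 8.28, 8.42 and 7.26 in wildtype and 9.53, 7.59 and 8.99 in knockout cells. Replicates 1 and 3 of the knockout were higher than every wildtype array, and replicate 2 was lower than wildtype replicates 1 and 2. The difference was 0.71, with an interval of -0.69 to 2.12. It was 0.30 without knockout replicate 1, 0.35 without wildtype replicate 3, 1.27 without knockout replicate 2 and 0.20 with array weights. Btg2, an anti-proliferative partner of the deadenylase complex, went the other way on 1 array. It had values of 11.31, 10.76 and 10.37 in wildtype and 9.15, 11.03 and 11.14 in knockout cells. The low value of knockout replicate 1 set the direction, since the difference was -0.37 with all arrays and 0.27 without it. Plk2, a polo-like kinase, had values of 6.23, 6.27 and 5.46 in wildtype and 5.65, 5.80 and 5.76 in knockout cells. All 6 lay below the array medians, and the difference was -0.24 (interval -0.81 to 0.33), with -0.51 without wildtype replicate 3 and -0.10 without wildtype replicate 2.

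**Figure D2:**
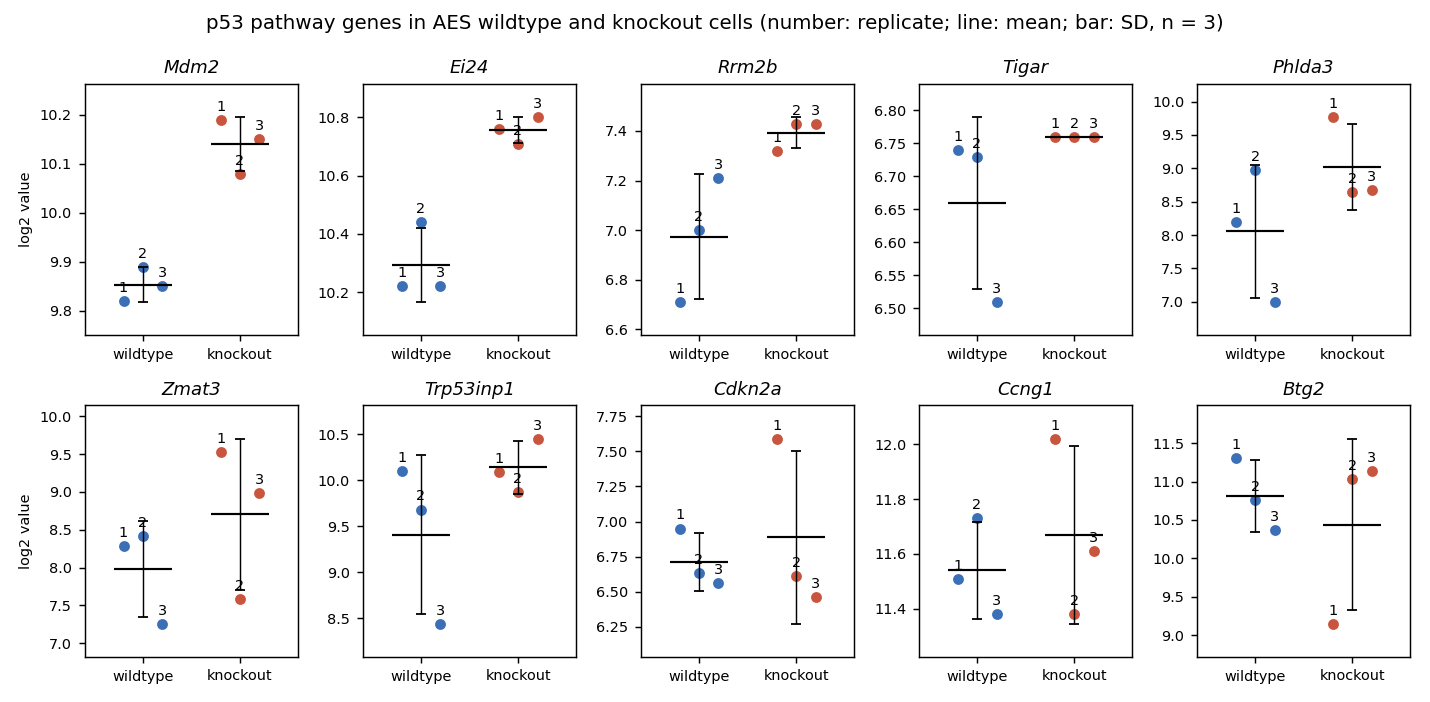
Log2 values (y axis, own scale per panel) of 10 p53 pathway genes on the 3 AES wildtype and 3 AES knockout arrays, with the replicate number at each point, the group mean as a line and the SD as a bar. The groups are apart for Mdm2, Ei24, Rrm2b and, by a narrow margin, Tigar, while single arrays such as wildtype replicate 3 and knockout replicate 1 stand out in Phlda3, Zmat3, Cdkn2a and Btg2.

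Among the 10 measured members that act in cell death, 6 had higher and 4 lower means in knockout cells. Ei24, also called PIG8, an endoplasmic reticulum protein that takes part in autophagy and growth suppression, had the smallest p of the list. Its values were 10.22, 10.44 and 10.22 in wildtype and 10.76, 10.71 and 10.80 in knockout cells. The knockout arrays lay close together and above all wildtype arrays. Means were 10.30 ± 0.13 and 10.76 ± 0.05 (SD, n = 3 each), and the knockout level was 1.38-fold that of wildtype (log2 difference 0.46, interval 0.24 to 0.69). The unadjusted limma p was 0.00259 and the adjusted p 1.00, with an exact permutation p of 0.1. Leaving out single arrays gave 0.42 to 0.53.

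Phlda3, a PH domain protein that competes with AKT for membrane lipids, had the largest difference of the 28 members. It had values of 8.19, 8.98 and 7.00 in wildtype and 9.77, 8.64 and 8.67 in knockout cells. Knockout replicate 1 was highest and wildtype replicate 3 lowest, and wildtype replicate 2 exceeded both other knockout arrays. The difference of 0.97 had an interval of -0.45 to 2.39 and was 0.44 when wildtype replicate 3 was left out and 0.60 when knockout replicate 1 was. Eda2r, a receptor of the TNF receptor family on the X chromosome, showed the same extremes. Its values were 6.29, 5.57 and 5.41 in wildtype and 6.97, 5.49 and 6.49 in knockout cells, with a difference of 0.56 (interval -0.50 to 1.62). That difference was 0.23 without knockout replicate 1 and 0.97 without knockout replicate 2, and 0.29 with array weights. It was above the array median on knockout replicate 1 alone.

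The BH3-only death genes Pmaip1 and Bbc3 had lower means in knockout cells. Pmaip1, which encodes NOXA, had values of 8.31, 7.09 and 6.58 in wildtype and 6.49, 6.57 and 6.99 in knockout cells. Wildtype replicate 1 was far above the other 5 arrays, and the difference moved from -0.64 to -0.15 without it. Bbc3, which encodes PUMA, had values of 7.91, 7.90 and 7.51 in wildtype and 7.81, 7.61 and 7.51 in knockout cells, a difference of -0.13 (interval -0.49 to 0.24). Its groups overlapped, and the difference ran from -0.26 without wildtype replicate 3 to -0.06 without knockout replicate 3. Tnfrsf10b, the mouse TRAIL receptor, had values of 6.89, 5.52 and 5.63 in wildtype and 5.64, 5.62 and 5.48 in knockout cells. Its difference of -0.44 came from wildtype replicate 1 and was 0.0001 without that array. Perp, a desmosomal protein, had values of 5.61, 5.90 and 5.73 in wildtype and 5.61, 5.46 and 5.68 in knockout cells. All lay below the array medians, as did those of the death receptor Fas, which ran from 5.32 to 5.57.

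Aen, an exonuclease of apoptotic cells with a p53 match between its 2 annotated starts, was at 8.37 to 8.61 in wildtype cells and at 9.08, 8.33 and 8.41 in knockout cells. Only knockout replicate 1 exceeded the wildtype range, and the difference of 0.14 was -0.09 without it. Apaf1, the scaffold of the apoptosome, ran from 10.07 to 10.22 in wildtype and from 10.21 to 10.34 in knockout cells, a difference of 0.12 (interval -0.09 to 0.32).

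Of 5 DNA repair members, Rrm2b alone had groups that did not overlap. Rrm2b is the p53-induced small subunit of ribonucleotide reductase, which supplies nucleotides for repair. It had values of 6.71, 7.00 and 7.21 in wildtype and 7.32, 7.43 and 7.43 in knockout cells. Even the lowest knockout value exceeded the highest wildtype value, and the wildtype arrays differed more among themselves than the knockout arrays. Means were 6.97 ± 0.25 and 7.39 ± 0.06 (SD, n = 3 each), and the knockout level was 1.34-fold that of wildtype (log2 difference 0.42, interval 0.08 to 0.76). The unadjusted limma p was 0.0245 and the adjusted p 1.00, with an exact permutation p of 0.1. The difference was 0.29 to 0.54 with single arrays left out. The damage sensors of nucleotide excision repair showed smaller differences, with Ddb2 at -0.03 and Xpc at -0.08. The excision endonuclease Ercc5 had a difference of 0.05 and the translesion polymerase Polk of 0.02. For these 4 the intervals included 0 and the direction changed when certain arrays were left out. The width of the intervals, -0.70 to 0.65 for Ddb2, leaves differences of that size undetectable with these arrays.

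All 5 measured members of stress and metabolism had higher means in knockout cells, with differences from 0.10 to 0.73. Trp53inp1, a stress protein that promotes p53 phosphorylation and autophagy, had the largest. Its values were 10.10, 9.68 and 8.44 in wildtype and 10.09, 9.87 and 10.45 in knockout cells. Wildtype replicate 3 was far below the others, and without it the difference moved from 0.73 to 0.25. Sesn1 and Sesn2 encode sestrins, which restrain mTORC1. Sesn1 had values of 9.32, 9.28 and 9.39 in wildtype and 9.21, 9.72 and 9.94 in knockout cells, a difference of 0.29 (interval -0.18 to 0.77). It was 0.13 without knockout replicate 3 and 0.50 without knockout replicate 1. Knockout replicates 2 and 3 were above the wildtype range and replicate 1 below it. Sesn2 had a difference of 0.16. It turned to -0.01 when wildtype replicate 3 was left out and to -0.04 when knockout replicate 3 was. Tigar, a fructose bisphosphatase that lowers glycolysis, had values of 6.74, 6.73 and 6.51 in wildtype and 6.76, 6.76 and 6.76 in knockout cells. Its groups did not overlap, but by a margin smaller than the gap among the wildtype arrays. The difference was 0.10, was 0.02 without wildtype replicate 3, and its groups overlapped after quantile normalization or median centring. Dcxr, a carbonyl reductase of sugar metabolism, had a difference of 0.18 (interval -0.24 to 0.60), which was 0.03 without knockout replicate 1 or with array weights, and 0.30 without knockout replicate 2.

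**Figure D3:**
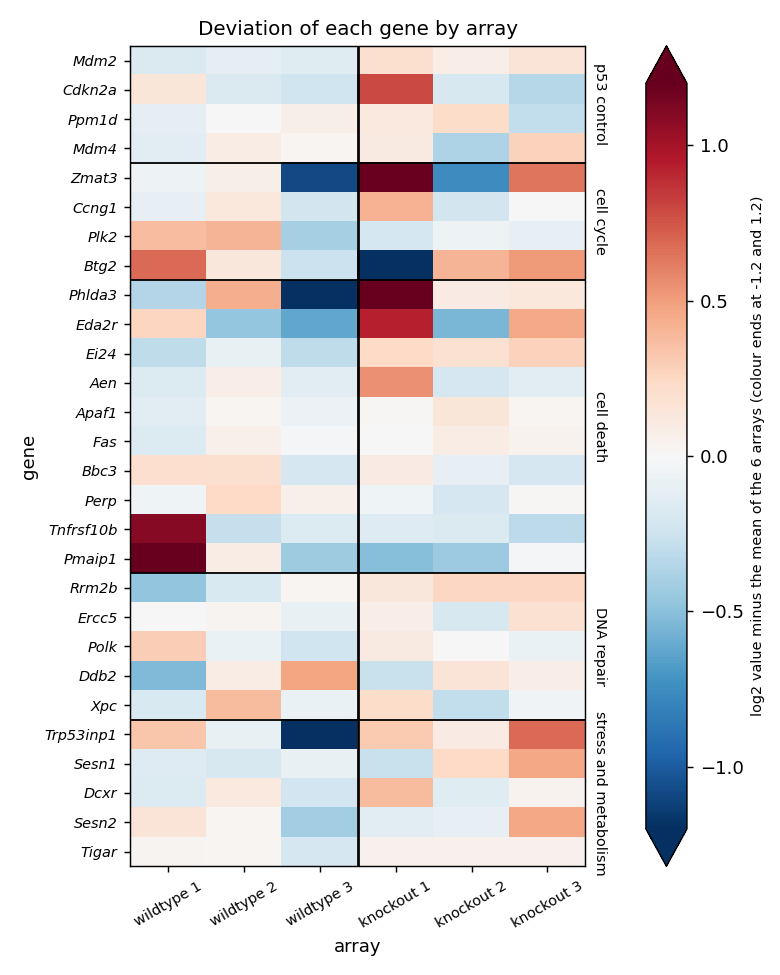
Deviation of each of the 28 measured p53 pathway genes (rows, grouped by role) from its mean over the 6 arrays (columns), in log2 units, with colours limited at -1.2 and 1.2. Wildtype replicate 3 is the lowest array for 11 genes, among them Phlda3, Zmat3 and Trp53inp1, and knockout replicate 1 the highest for 9, among them Phlda3, Zmat3, Eda2r and Cdkn2a.

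Some single arrays held the highest or lowest value for many members, and no split of the variation between arrays and groups was computed. Wildtype replicate 3 held the lowest value for 11 of 28 members (39.3%), against 9.64% of all genes. These were Bbc3, Ccng1, Dcxr, Eda2r, Phlda3, Plk2, Polk, Sesn2, Tigar, Trp53inp1 and Zmat3. Knockout replicate 1 held the highest value for 9 members (32.1%), a share close to the 27.0% over all genes. These were Aen, Ccng1, Cdkn2a, Dcxr, Eda2r, Mdm2, Phlda3, Tigar and Zmat3. Knockout replicate 3 was highest for 7 of 28 members, including Sesn1, Sesn2 and Trp53inp1, and for 17.5% of all genes. Knockout replicate 2 had the highest AES signal of the knockout arrays. It was highest for 3 members (10.7%, against 11.1% of all genes) and lowest for 5 (17.9%, against 15.8%). Both shares lay close to those over all genes. The mean deviation over the 28 members was -0.28 on wildtype replicate 3, against 0.06 and 0.04 on wildtype replicates 1 and 2. For the knockout arrays it was 0.14, -0.07 and 0.12. Knockout replicates 1 and 3, the arrays low in Y-linked genes, were also the higher ones for Zmat3 and Eda2r among knockout arrays. A link with Y-linked signal was not tested. Wildtype replicate 3 was the lowest and knockout replicate 1 the highest array for Phlda3, Zmat3 and Eda2r, and also for Ccng1, Dcxr and Tigar. Both arrays were low in neutrophil and in myeloid blast genes. The part of cell composition in these values was not tested. In sorted bulk cells, fewer cells that express a gene and less RNA per cell cannot be told apart.

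Genes of the pathway outside the list did not pass the test either. Of 30 listed regulators of p53, including damage kinases, acetyltransferases and ribosomal sensors, 29 were measured and 0 passed the adjusted test. Their median difference was 0.02, and -0.04 without knockout replicate 1. Groups did not overlap for 4 regulators higher in knockout cells (13.8%, against 3.65% of all genes) and for 1 lower (against 3.51%). Rb1, the retinoblastoma protein, had a difference of 0.20 and the acetyltransferase Kat5 of 0.19, each with all knockout arrays above all wildtype arrays. Trp53rka, a p53-related kinase gene with a close copy, Trp53rkb, lay at -0.24 with all knockout arrays below, and the copy makes its value uncertain. Trp63 and Trp73, the relatives of p53, had differences of 0.09 each and lay below the array medians.

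A list of 50 further p53 targets had 44 measured genes, of which 24 had higher and 20 lower means, 0 passed the adjusted test and 4 (9.09%) had an unadjusted p under 0.05, against 2.53% of all genes. The median was 0.02, and 0.08 without knockout replicate 3. Ak1, adenylate kinase, had values of 6.37, 6.40 and 6.28 in wildtype and 6.91, 6.80 and 6.70 in knockout cells (difference 0.45). Epha2, an ephrin receptor, had values of 6.56, 6.94 and 6.95 and of 7.25, 7.82 and 8.31 (difference 0.98). Groups were apart for both. Dyrk3, a dual-specificity kinase, lay at 10.43, 10.08 and 9.52 in wildtype and 9.26, 8.23 and 9.16 in knockout cells (difference -1.13), lower on each knockout array.

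Mitotic genes that p53 lowers through p21 and the DREAM repressor complex had lower means in knockout cells for 14 of 14 measured genes, with a median difference of -0.22. With limma 0 passed the adjusted test and 0 had an unadjusted p under 0.05, and the groups overlapped for all 14. The difference came from knockout replicate 3, where the list deviated by -0.64, against 0.08 and 0.23 on the other knockout arrays. Without that array the median was 0.05, without knockout replicate 2 it was -0.39, and with array weights -0.02. Ccnb2, cyclin B2, had values of 11.97, 11.95 and 12.15 in wildtype and 11.82, 12.09 and 11.39 in knockout cells. Knockout replicate 3 was also the highest array for Sesn1, Sesn2 and Trp53inp1, while knockout replicate 1, the highest for Phlda3 and Zmat3, was not low in mitotic genes.

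**Figure D4:**
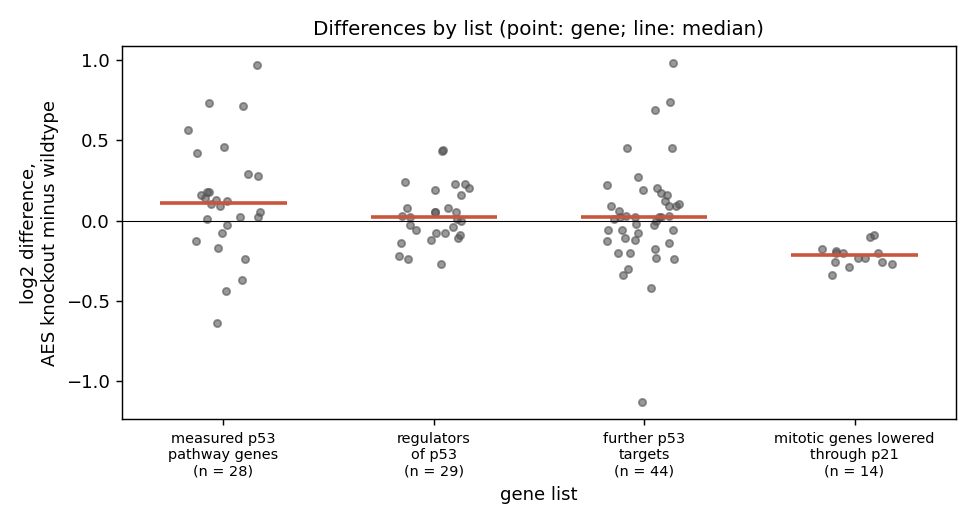
Log2 difference of AES knockout minus wildtype cells (y axis) for the genes of 4 lists (x axis), with each gene as a point, spread sideways for sight, and the median as a line. Medians are 0.11, 0.02, 0.02 and -0.22 from left to right, and no gene shown passed after adjustment over all genes.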

How the data were processed

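RNA from 6 samples, 3 AES wildtype and 3 AES knockout, had been hybridised to 1 array each. The authors deposited processed values from 2.67 to 14.37, taken here as log2. Base, background correction, probe summary and normalization are steps not given in the sources used here. Their range is the only basis for the base. Rows were named where the platform annotation gave 1 symbol (21789 of 35512 rows), updated by gene identifier through the GRCm38.p6 gene table, and the row with the highest mean over the 6 arrays was kept per gene. None of the listed genes had more than 1 such row. limma (lmFit and eBayes, two-sided) was fitted to all 19938 genes with Benjamini-Hochberg adjustment at 0.05, with no block, filter or further normalization, and was tested on simulated data. The number of arrays limits the precision. The members and lists were chosen with earlier results of these data known, so lists are described by counts and medians with no set test. Values on every array were given for control genes, for members with groups apart and for the 4 smallest p in each direction. From each other p53 list, up to 3 genes were named, taken from the 3 with the smallest p. Trp53rkb was named only as the copy of Trp53rka. Myeloid blast genes in the check of the arrays were named by their level and not by p. Further members, such as Zmat3, Btg2, Trp53inp1 and Eda2r, were shown after their values had been seen. Tools were limma 3.58.1 in R 4.3.3, with Python 3.11.15 for tables and matplotlib 3.10.9 for plots. The settings varied were normalization (quantile or median centring), a dim-gene filter (above the array median on at least 3 arrays), trend and robust eBayes, a replicate block, averaging of rows, array weights, no moderation, and each array left out.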

Additional observations from a re-analysis of the deposited data

How the results depend on the processing

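No member passed the adjusted limma test under any of the 14 alternatives, and the lowest adjusted p of a member was 0.897. Of all genes, 3 were lower without knockout replicate 2 and 0 passed otherwise. The replicate number was also fitted as a block, which gave 0 calls. Each group holds each number once, so the block leaves every difference, and the median of 0.11, unchanged by construction. Averaging of rows likewise leaves the differences of members unchanged, since none had more than 1 row. The deviations of same-numbered samples had r = -0.259, -0.228 and 0.075, and those of unlike-numbered samples -0.174 to 0.343. These values do not show a pairing and cannot exclude one. With single arrays left out, members apart and higher numbered 4 to 8 (6.41% to 10.6% of all genes) and members apart and lower 0 to 3 (6.06% to 11.6% of all genes). Members apart with all arrays stay apart by construction. The medians ran from 0.07 to 0.17 for members, -0.04 to 0.06 for regulators and -0.01 to 0.08 for further targets. The count of calls over all genes was 0 to 3. Direction changed under quantile normalization for Mdm4 (-0.03) and Ppm1d (-0.01), and with array weights for Aen (-0.01), Ccng1 (-0.02), Ercc5 (-0.06) and Mdm4 (-0.20). With arrays left out, 16 members kept their direction and 12 did not. The ranges of the latter were -0.13 to 0.20 for Mdm4, -0.08 to 0.18 for Ppm1d, -0.68 to 0.0001 for Tnfrsf10b, -0.30 to 0.20 for Ddb2, -0.10 to 0.17 for Polk, -0.22 to 0.09 for Xpc, -0.04 to 0.27 for Sesn2, -0.09 to 0.28 for Aen, -0.72 to 0.27 for Btg2, -0.04 to 0.28 for Ccng1, -0.17 to 0.39 for Cdkn2a and -0.03 to 0.15 for Ercc5. The causes were not tested. With at most 2 mismatches, 1 member and 51 genes held a p53 full site. The filter on dim genes left 22 members. Of 28 members, 3 were below the array median on all arrays, where differences may be compressed.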
